A study of Macaca mulatta with 9 samples.

Results

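The genes described here are 7 developmental regulators of transcription measured in the prostate of rhesus monkeys (Macaca mulatta) whose mothers had received TCDD: IRX1, IRX3 and IRX4 of the Iroquois family, ODD of the odd-skipped family, SIX2 with its partner EYA1, and BARHL1. They were taken by symbol from the table of probes that the authors deposited with their fold changes, where each of the 7 symbols stands at 1 probe. That table holds 1502 of the 20217 probes on the arrays, and 1367 of these carry a symbol (1331 different symbols). It was itself drawn from the same 9 arrays, with cutoffs of 0.05 for the p of a 1-way analysis of variance and 1.5 for the fold, so the differences between dose groups below chose the genes and are given as a description without a p-value.

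TCDD, a long-lived dioxin, acts through the aryl hydrocarbon receptor, a transcription factor that switches on genes of foreign-compound metabolism. Pregnant dams were injected under the skin with the vehicle or with TCDD at 30 or 300 ng/kg on gestation day 20, and top-ups of 5% of that amount followed at 30-day intervals until day 90 after birth. Their offspring were raised to maturity and necropsied 7 years later, so the tissue comes from grown animals exposed through the dam. Each group held 3 offspring with 1 array of homogenised whole prostate each, and the labels used here do not say whether offspring shared a dam.

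Iroquois proteins are homeodomain transcription factors that pattern the neural tube, heart, limb and kidney of the embryo, and their genes lie in a pair of conserved clusters. ODD, an older name of OSR1, is a zinc finger factor of the intermediate mesoderm, the embryonic source of the kidney and of much of the male reproductive tract. SIX2 is a homeodomain factor that holds kidney progenitor cells undifferentiated, and EYA1 is a coactivator and phosphatase that works bound to SIX2 and its relatives. BARHL1 is a homeodomain factor known from the hindbrain and inner ear.

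In offspring of the 300 ng/kg dams, the prostate probes of IRX3, IRX4 and ODD were brighter than in every vehicle animal, by 2.39, 2.21 and 2.65 on the log2 scale (5.25-fold, 4.64-fold and 6.26-fold). SIX2, EYA1 and BARHL1 were dimmer than in every vehicle animal relative to the rest of the array, by 2.88-fold, 3.28-fold and 2.91-fold. IRX1 was 2.58-fold higher on average, with groups that overlapped. With the same scaling, the differences of the 30 ng/kg group from the same vehicle animals ran from -1.01 for ODD to 0.61 for BARHL1 over the 6 probes other than IRX4, and each was smaller than that probe's difference at 300 ng/kg. IRX4 was at the floor of measurement on all 30 ng/kg arrays. All values are log2 of the processed signal over the 75th percentile of its array, called scaled signal here: a probe at 0 is as bright as that percentile, and a step of 1 is a factor of 2. Levels of different probes are not comparable with each other.

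**Figure D1:**
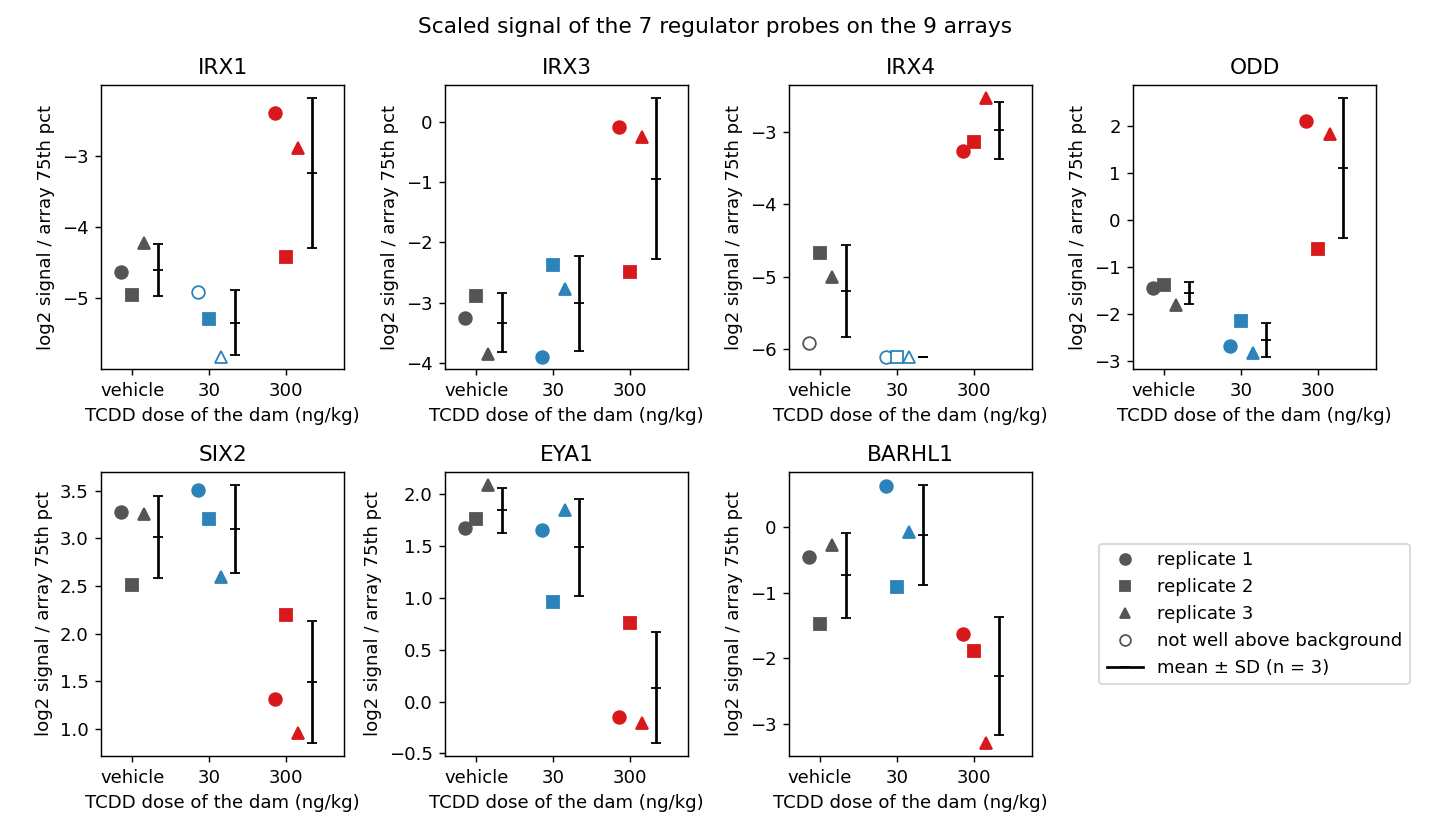
Scaled signal (log2 of signal over the array's 75th percentile, y axis, its range set per panel) of each regulator probe in the vehicle, 30 ng/kg and 300 ng/kg groups (x axis), with 1 point per animal, its shape giving the replicate number, open points for arrays not well above background, and bars for the mean ± SD (n = 3). IRX3, IRX4 and ODD at 300 ng/kg lie above all vehicle points, SIX2, EYA1 and BARHL1 lie below them, and in 5 of the 7 panels the square of replicate 2 is the 300 ng/kg point nearest the vehicle mean.

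The arrays differed in brightness and slide along with dose. Vehicle arrays had a 75th percentile of signal of 514 to 1193 units, those of 30 ng/kg 343 to 1356, and those of 300 ng/kg 1258 to 2374. Slide 1 held vehicle replicates 1 and 2, slide 2 held vehicle replicate 3 with replicates 1 and 2 of 30 ng/kg, and slide 3 held the remaining 30 ng/kg array and all 3 arrays of 300 ng/kg. Each slide had its own scan, and vehicle and 300 ng/kg arrays never shared one, so slide and dose cannot be told apart directly for that comparison. Correlations across probes ran from 0.945 to 0.975 within a group and from 0.884 to 0.984 between groups. Of the luminal genes that define prostate, KLK3 and MSMB were well above background on all 9 arrays.

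Limma, a linear model with variances moderated over the 15160 tested probes, called 0 probes at a Benjamini-Hochberg adjusted p under 0.05 in any of the 3 comparisons. An unadjusted p under 0.05 was reached by 5.05% of tested probes for 30 ng/kg minus vehicle, 15.5% for 300 ng/kg minus vehicle and 20.6% for 300 minus 30 ng/kg. Single arrays moved the adjusted counts: without replicate 2 of 300 ng/kg there were 271 calls against vehicle and 155 against 30 ng/kg. Without replicate 2 of 30 ng/kg there were 774 calls between the doses and 1 against vehicle, and without vehicle replicate 1 there was 1 call between the doses.

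IRX1 and IRX4 are members of the same Iroquois cluster, and in the macaque reference table only IRX2 and IRX2-DT lie between them. IRX1 stood at -4.63, -4.95 and -4.23 in vehicle replicates 1 to 3, -4.91, -5.29 and -5.82 at 30 ng/kg, and -2.40, -4.42 and -2.89 at 300 ng/kg. Replicates 1 and 3 of 300 ng/kg lay above every other array, while replicate 2 lay within the vehicle range. At 30 ng/kg the probe was well above background on 1 of 3 arrays, replicate 2, so the low end of its range is near the limit of measurement. In order of dose the group means were -4.60 ± 0.36, -5.34 ± 0.45 and -3.24 ± 1.05 (SD, n = 3). IRX1 was 1.37 ± 0.49 higher at 300 ng/kg than in vehicle (log2 difference ± SE of the fit), a difference that was 0.95 without replicate 1 of 300 ng/kg and 1.96 without replicate 2. Against 30 ng/kg the 300 ng/kg group was 2.10 ± 0.49 higher and did not overlap it.

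IRX4 is the second gene of that cluster on the table and is known from the ventricles of the heart. Its scaled signal was -5.91, -4.68 and -5.00 in the vehicle animals and -3.27, -3.14 and -2.54 at 300 ng/kg. All 3 arrays of 30 ng/kg were not well above background and sat at the floor of -6.10, and vehicle replicate 1 was also not well above background. The groups at 300 ng/kg and vehicle were separated by a gap of 1.41, and replicate 2, which was near vehicle for IRX1, was not so for IRX4. The mean of the 300 ng/kg group was -2.98 ± 0.39 against -5.20 ± 0.64 in vehicle (SD, n = 3), a difference of 2.21 ± 0.34 (SE). That SE pools the spread of all 3 groups. It is lowered by the floor, which set the SD of the 30 ng/kg group to 0. For 30 ng/kg only a bound holds: in scaled signal IRX4 was at least 4.97-fold higher at 300 than at 30 ng/kg. Against vehicle no bound can be given, since vehicle replicate 1 was itself not well above background. The bound sets the 300 ng/kg mean against the lowest signal among probes well above background on the 30 ng/kg arrays, or the probe's own signal where that was higher. Under the normexp background correction described below, the difference between the doses was only 0.09 (log2) and the groups overlapped.

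IRX3 belongs to the other Iroquois cluster. In the reference table it lies next to FTO, with LOC144337759 and LOC106995021 between it and IRX5. Neither FTO nor IRX5 has a symbol in the authors' table. IRX3 stood at -3.26, -2.89 and -3.86 in vehicle, -3.89, -2.37 and -2.77 at 30 ng/kg, and -0.087, -2.49 and -0.26 at 300 ng/kg. The first and last of the 300 ng/kg animals were far above all others, and replicate 2 lay just above the vehicle range and within that of 30 ng/kg. The 300 ng/kg group averaged -0.95 ± 1.34 against -3.34 ± 0.49 in vehicle and -3.01 ± 0.79 at 30 ng/kg (SD, n = 3). The difference from vehicle was 2.39 ± 0.65 (SE) with all arrays, 1.96 without replicate 1 of 300 ng/kg and 3.16 without replicate 2. Vehicle and 30 ng/kg differed by 0.32 ± 0.65 (SE), less than the SD within either group.

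The 3 Iroquois probes thus shared a higher mean at 300 ng/kg than in vehicle, but not the same order at the lower dose: IRX1 and IRX4 had their lowest mean at 30 ng/kg, and IRX3 had its lowest in vehicle. For the dim probes IRX1 and IRX4 these orders depended on how background was treated. Their signals in the vehicle and 30 ng/kg arrays were between 0.763 and 46.5 units, and the normexp correction adds 50 units to every signal before taking logs. Under it the 300 ng/kg minus vehicle difference kept its sign but was 0.37 for IRX1 and 0.66 for IRX4, and the 30 ng/kg minus vehicle differences turned to 0.61 and 0.57. For 300 minus 30 ng/kg IRX1 turned to -0.24, which was 0.28 above the shifted median of all tested probes. IRX4 fell to 0.09, which was 0.61 above that median, and its groups overlapped. Normexp put that median at 0.29 for 30 ng/kg minus vehicle, -0.22 for 300 ng/kg minus vehicle and -0.52 between the doses, and relative to that median IRX1 and IRX4 were 0.59 and 0.88 higher at 300 ng/kg than in vehicle. Within whole prostate, fewer cells of a type and less RNA per cell cannot be told apart, here and for every gene below.

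ODD had the largest difference from vehicle of the 7 probes at 300 ng/kg with this scaling, and its value at the lower dose lay on the other side of vehicle. Its scaled signal was -1.45, -1.38 and -1.81 in vehicle, -2.68, -2.16 and -2.83 at 30 ng/kg, and 2.10, -0.62 and 1.81 at 300 ng/kg. No group overlapped another: every 30 ng/kg animal was below and every 300 ng/kg animal above the vehicle range. Replicate 2 was again the lowest of the 300 ng/kg animals. Means were -1.55 ± 0.23, -2.55 ± 0.35 and 1.10 ± 1.49 in order of dose (SD, n = 3). ODD was 2.65 ± 0.62 higher at 300 ng/kg than in vehicle, 2.15 higher without replicate 1 of 300 ng/kg and 3.50 higher without replicate 2. It was lower by 1.01 ± 0.62 at 30 ng/kg (log2 difference -1.01, SE 0.62), which is larger than either group's SD and slightly larger than the probe's residual SD of 0.90 over all groups. The separation of 30 ng/kg from vehicle was lost under normexp, where the difference was -0.26, and in unscaled signal, with 51.1 to 304 units at 30 ng/kg against 188 to 457 in vehicle. Under both, every 300 ng/kg animal stayed above the vehicle range. Both differences share the vehicle arrays. The 12.6-fold difference between the doses (3.65 ± 0.62) shares arrays with both. ODD was the only one of the 7 probes that was measured above background on all 9 arrays and had 3 groups without overlap in scaled signal.

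OSR2, the other odd-skipped gene of the table, did not follow ODD. Its scaled signal was 3.84, 4.43 and 4.46 in vehicle, 3.73, 4.12 and 3.76 at 30 ng/kg, and 3.38, 3.61 and 3.77 at 300 ng/kg. All 300 ng/kg animals were below all vehicle animals, and the 30 ng/kg group overlapped both. The difference from vehicle was -0.66 ± 0.25 (SE) at 300 ng/kg, opposite in sign to that of ODD, and -0.37 ± 0.25 at 30 ng/kg. The opposite sign holds relative to the array: in the unscaled means of the authors' deposited table OSR2 was 0.43 higher (log2) at 300 ng/kg than in vehicle.

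SIX2 was lower at 300 ng/kg relative to the rest of the array. It stood at 3.28, 2.51 and 3.25 in vehicle, 3.51, 3.20 and 2.60 at 30 ng/kg, and 1.31, 2.20 and 0.96 at 300 ng/kg. Vehicle and 30 ng/kg overlapped, and all 3 animals of 300 ng/kg lay below both, with replicate 2 the nearest. Group means, from vehicle to the higher dose, were 3.01 ± 0.44, 3.10 ± 0.46 and 1.49 ± 0.64 (SD, n = 3). The 300 ng/kg group differed from vehicle by -1.53 ± 0.39 (SE) and from 30 ng/kg by -1.61 ± 0.39. Vehicle and 30 ng/kg differed by 0.09 ± 0.39, with a sign that turned under other settings.

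The duplicate spots of SIX2 matched less well than those of the other probes. Their log2 ratio had a median of 0.45 over the 9 arrays, against 0.12 over all 63 probe and array pairs of the 7 genes. The widest gap, 1.65, was on 300 ng/kg replicate 1, where the spots read 1514 and 4737 units, and neither was flagged as an outlier or saturated. With only the brighter spot of each array SIX2 was at -1.37 for 300 ng/kg minus vehicle, and with only the dimmer spot at -1.81. In both cases the groups did not overlap.

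EYA1, like its partner SIX2, was lower at 300 ng/kg relative to the rest of the array. Its scaled signal was 1.68, 1.77 and 2.09 in vehicle, 1.66, 0.96 and 1.85 at 30 ng/kg, and -0.15, 0.75 and -0.21 at 300 ng/kg. The 300 ng/kg animals were below all others, with a gap of 0.93 to the lowest vehicle animal, and replicate 2 was again the one nearest vehicle. Means were 1.85 ± 0.22, 1.49 ± 0.47 and 0.13 ± 0.54 in order of dose (SD, n = 3). EYA1 differed from vehicle by -1.71 ± 0.34 (SE) at 300 ng/kg and by -0.36 ± 0.34 at 30 ng/kg, where the groups overlapped. Its residual SD of 0.43 was close to the median of 0.40 over all tested probes, and with slide as a fixed block the 300 ng/kg difference was -2.50. Over the 9 arrays the scaled signals of SIX2 and EYA1 correlated at 0.85, a description of values that share arrays and dose groups.

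BARHL1 was lower at 300 ng/kg relative to the rest of the array, most of all in replicate 3. It stood at -0.45, -1.47 and -0.27 in vehicle, 0.63, -0.91 and -0.075 at 30 ng/kg, and -1.63, -1.89 and -3.30 at 300 ng/kg. Vehicle and 30 ng/kg overlapped, and the 300 ng/kg group lay below both by a narrow gap of 0.15 to vehicle replicate 2. Vehicle averaged -0.73 ± 0.65, the 30 ng/kg group -0.12 ± 0.77 and the 300 ng/kg group -2.27 ± 0.90 (SD, n = 3). The difference from vehicle was -1.54 ± 0.55 (SE) at 300 ng/kg and 0.61 ± 0.55 at 30 ng/kg, and this second value was smaller than the spread within either group.

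Counted over the 7 probes, 3 lay above and 3 below the vehicle range in every 300 ng/kg animal. The share of all tested probes without overlap in that comparison was 11.5% above and 11.2% below (22.7% in all), and since the table that gave the 7 genes was drawn from this contrast, the count is a property of the choice. At 30 ng/kg, ODD and IRX4 lay below the vehicle range in all animals, against 4.45% of tested probes below and 9.38% in either direction. IRX4 was at the floor there, and its lowest vehicle array was also not well above background. Between the doses, IRX1, IRX4 and ODD were higher and SIX2, EYA1 and BARHL1 lower at 300 ng/kg without overlap, against 11.2% and 14.4% of tested probes (25.6% in all). Under normexp only ODD stayed higher, and EYA1 and BARHL1 lower, without overlap between the doses. In unscaled signal SIX2, EYA1 and BARHL1 all overlapped there. The median difference of the 7 probes from vehicle at 300 ng/kg was 1.37, the value of IRX1. It describes no common rise, since 4 of the 7 were higher and 3 lower. The median was -0.01 over all tested probes and -0.34 over the 1190 tested genes with a symbol in the authors' table. All 7 probes differed by at least 2-fold, as did 12.4% of tested probes and 37.0% of those genes.

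**Figure D2:**
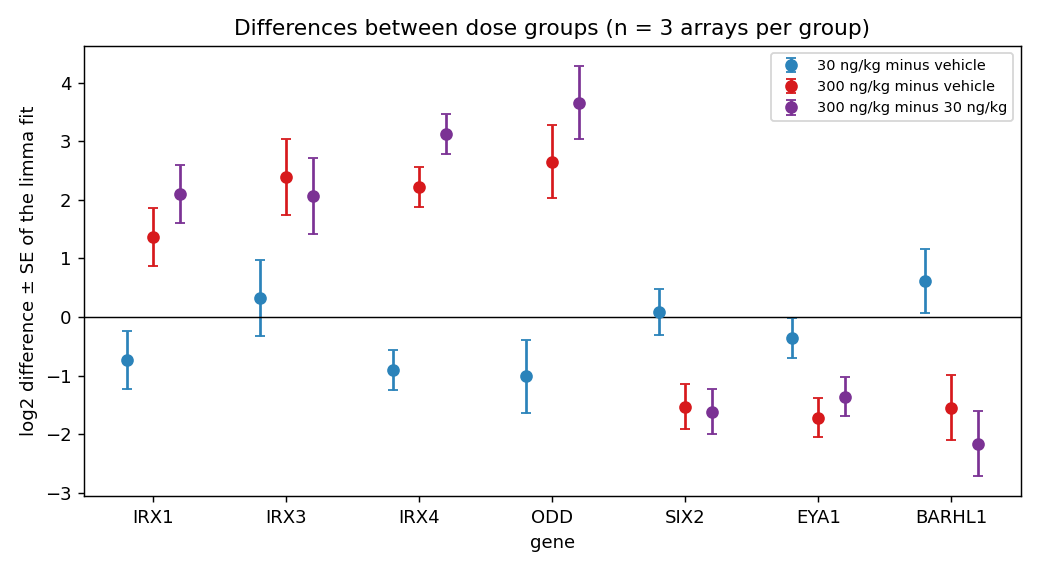
Log2 differences between dose groups (y axis) for each of the 7 regulator probes (x axis), with bars for the SE of the limma fit (n = 3 arrays per group). The SE of IRX4 is lowered by its 30 ng/kg values, all at the floor. At 300 ng/kg minus vehicle ODD is highest at 2.65 and EYA1 lowest at -1.71, and the 30 ng/kg minus vehicle points of the 6 probes other than IRX4 lie between -1.01 and 0.61, that of IRX4 being set by the floor; those of IRX1 and IRX4 turn positive, and that of SIX2 negative, under normexp.

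Replicate 2 of 300 ng/kg was the animal nearest the vehicle mean for IRX1, IRX3, ODD, SIX2 and EYA1, and replicate 1 was nearest for IRX4 and BARHL1. For ODD replicate 2 was 0.93 above the vehicle mean, beside 3.65 and 3.36 for replicates 1 and 3. For EYA1 it was at -1.09, beside -1.99 and -2.05. The spread within groups of IRX3, ODD and BARHL1 exceeded that of most probes: their residual SDs of 0.94, 0.90 and 0.78 were larger than those of 92.6%, 91.3% and 86.3% of tested probes.

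The lower values of SIX2, EYA1 and BARHL1 hold relative to the array, not in unscaled signal. Before scaling, the median tested probe was 1.10 brighter (log2) at 300 ng/kg than in vehicle. SIX2 read 4994 to 7605 units in vehicle and 3125 to 7401 at 300 ng/kg, with overlap. EYA1 read 1646 to 4057 units in vehicle and 1137 to 2720 at 300 ng/kg, and BARHL1 377 to 661 and 241 to 435, again with overlap. The Iroquois probes and ODD were above the vehicle range both before and after scaling, except IRX1, which overlapped after this scaling. IRX1 read 20.8 to 42.6 units in vehicle and 75.4 to 319.6 at 300 ng/kg, and ODD 188 to 457 and 1052 to 8344. The part of array brightness in these differences was not tested.

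**Figure D3:**
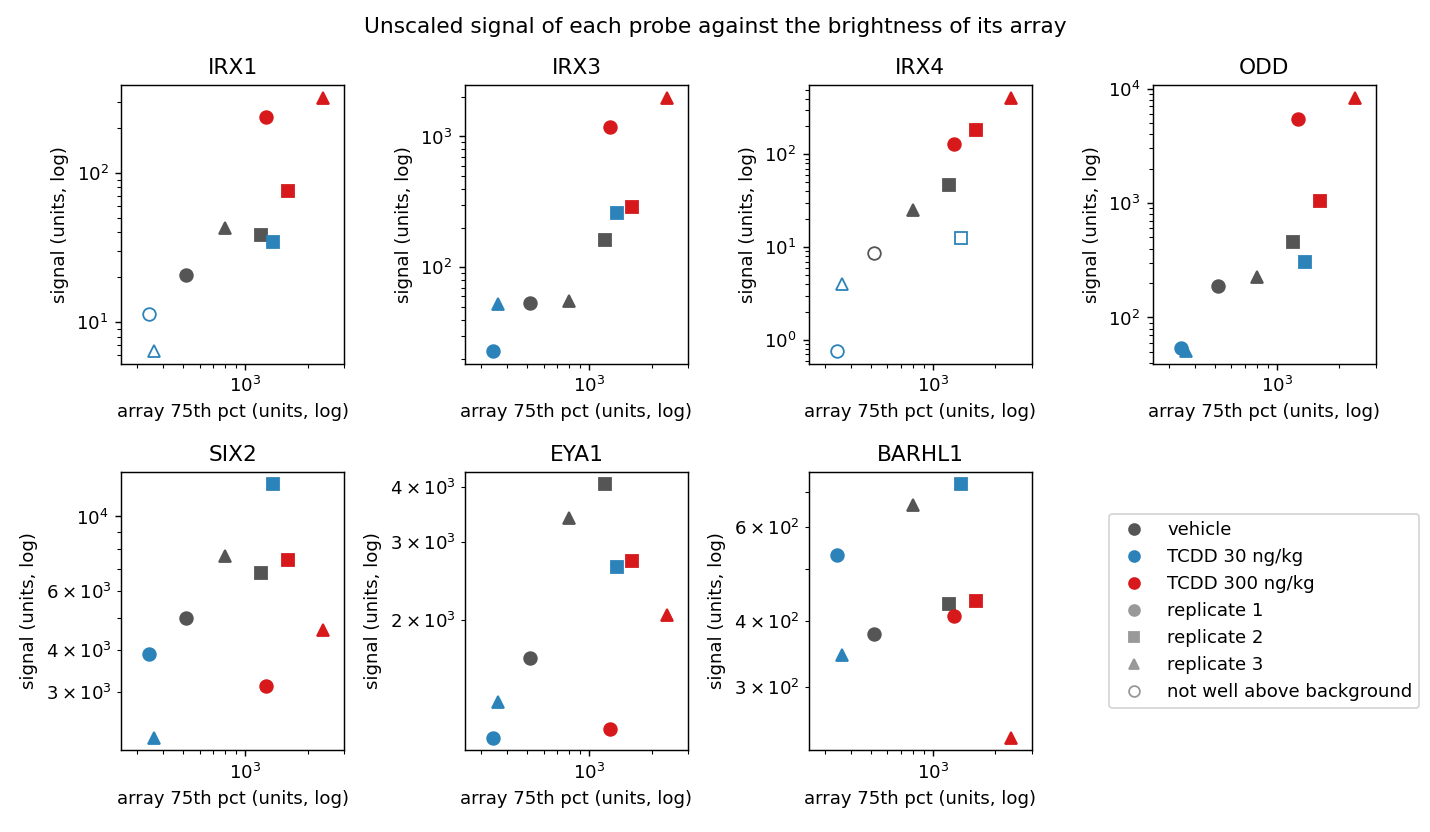
Unscaled signal of each regulator probe (y axis, units, log axis) against the 75th percentile of its array (x axis, units, log axis), 1 point per array, coloured by dose group and shaped by replicate. The 300 ng/kg arrays are bright (1258 to 2374 units) and carry the highest IRX1, IRX3, IRX4 and ODD signals, while their SIX2, EYA1 and BARHL1 signals overlap those of vehicle.

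Within a slide the differences kept their direction where a slide held both groups. On slide 3, which held 1 array of 30 ng/kg and all of 300 ng/kg, the 300 minus 30 ng/kg difference was 3.93 for ODD and 1.83 for IRX3. IRX1 and IRX4 were not well above background on that 30 ng/kg array and were higher on each 300 ng/kg array there, so their differences have no exact size. On the same slide it was -1.11 for SIX2, -1.72 for EYA1 and -2.20 for BARHL1. On slide 2, with 1 vehicle array, the 30 ng/kg minus vehicle difference was -0.60 for ODD, -0.78 for EYA1 and 0.10 for SIX2. With slide as a fixed block, a fit that ties vehicle to 300 ng/kg through slide 2 and 1 array of 30 ng/kg, the 300 ng/kg minus vehicle differences were 3.32 for ODD, 2.55 for IRX3, 2.02 for IRX4, 1.71 for IRX1, -1.01 for SIX2 and -2.06 for BARHL1.

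**Figure D4:**
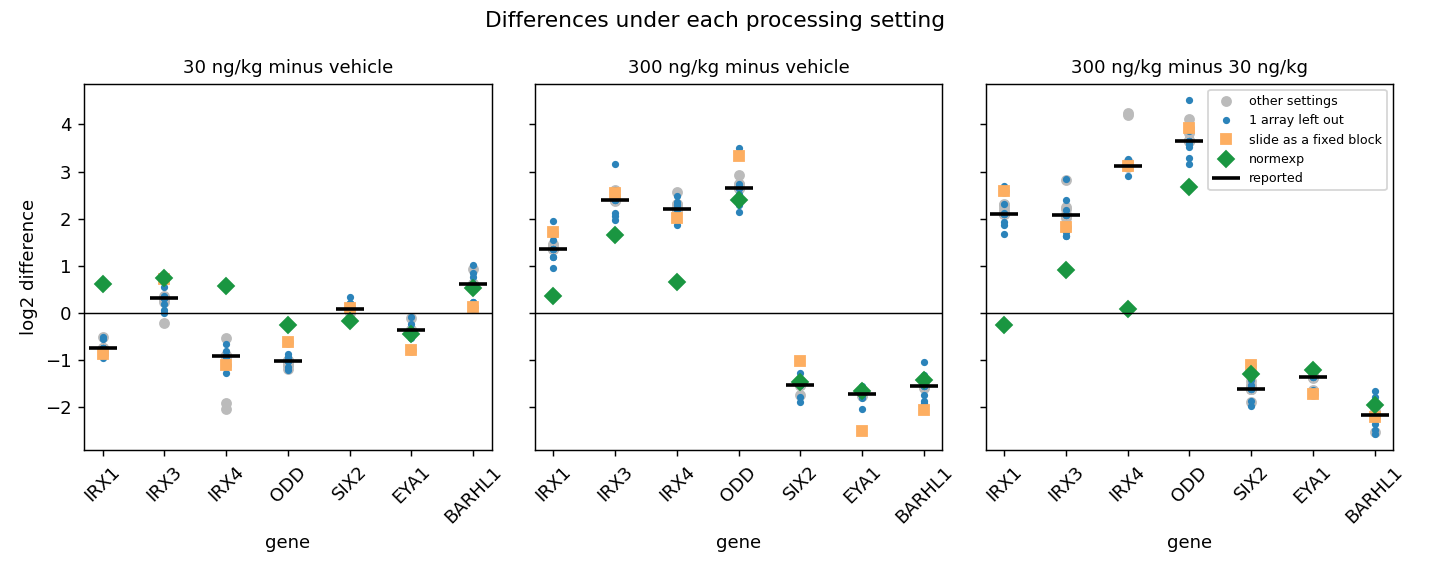
Log2 difference of each regulator probe (x axis) in the 3 comparisons (panels) under each planned processing setting: the reported value (line), normexp background correction (diamond), slide as a fixed block (square), 1 array left out (small points) and the other settings (grey). At 300 ng/kg minus vehicle all points keep their sign, with the IRX1 and IRX4 diamonds at 0.37 and 0.66; the IRX1, IRX4 and SIX2 diamonds and some other SIX2 and IRX3 points cross 0 at 30 ng/kg minus vehicle, and the IRX1 diamond does so between the doses.

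At 300 ng/kg the authors' deposited table gave nearly the same sizes. It lists 300 ng/kg folds of 6.27 up for ODD, 5.25 up for IRX3, 4.64 up for IRX4, 2.58 up for IRX1, 3.27 down for EYA1, 2.91 down for BARHL1 and 2.88 down for SIX2. At 30 ng/kg the authors' deposited table lists 2.22 down for IRX4, a probe that was not well above background in that group and is held at the floor here, 2.01 down for ODD and 1.67 down for IRX1. The lowest of the members' larger folds, that of IRX1, is well inside the table's limit of 1.5, at which FBXL2 stands.

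Few other developmental regulators carried a symbol. Of a list of 106 homeobox and related genes 8 had one, the Iroquois genes, SIX2 and BARHL1 among them, which left MEIS3, HOXC9 and PRRX1. Of 22 genes of the network that joins SIX2 and its relatives to PAX, EYA and DACH factors only SIX2 and EYA1 had one. Of 52 further factors of urogenital development 6 had one, ODD and OSR2 with FOXC1, FOXP4, HEY1 and HES1. These lists were drawn up with earlier results of the data known, and all genes in them come from the authors' table of changed probes, so their counts are a description.

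Among the homeobox genes, PRRX1, a factor of mesenchyme, stood at 0.87, 0.97 and 0.71 in vehicle, 1.00, 0.79 and 1.20 at 30 ng/kg, and 1.77, 1.48 and 1.90 at 300 ng/kg. The 300 ng/kg animals were above all others, and the difference from vehicle was 0.87 ± 0.21 (SE). MEIS3, a cofactor of HOX proteins, was lower at 300 ng/kg relative to the rest of the array, without overlap, with a difference of -0.96 ± 0.27. HOXC9, a positional HOX gene, differed by -0.77 ± 0.37 with overlap, its replicate 2 at -2.39 beside -3.77 and -3.61. So 1 of the 3 was higher and 1 lower without overlap, against 11.5% and 11.2% of tested probes. Their median difference was -0.77, beside -0.01 for all tested probes. Over the 1190 tested genes with a symbol, the set from which they come, the median was -0.34.

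Of the 5 urogenital factors besides ODD, HES1 and HEY1 were above the vehicle range in all 300 ng/kg animals and FOXC1, FOXP4 and OSR2 below it, against the same 11.5% and 11.2% of tested probes. HES1, a repressor downstream of Notch, stood at -0.19, 0.02 and -0.25 in vehicle, -1.22, 0.58 and -0.16 at 30 ng/kg, and 1.75, 0.52 and 1.56 at 300 ng/kg. As for ODD and IRX3, replicate 2 was the lowest of the 300 ng/kg animals, and it lay within the 30 ng/kg range. The differences from vehicle were 1.42 ± 0.47 (SE) for HES1 and 0.85 ± 0.23 for HEY1, a related Notch target. FOXC1, a forkhead factor of mesoderm and vessels, had the widest difference downward, at -1.72 ± 0.41, and FOXP4 was at -1.05 ± 0.26. The median of the 5 was -0.66, beside -0.34 over the tested genes with a symbol.

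**Figure D5:**
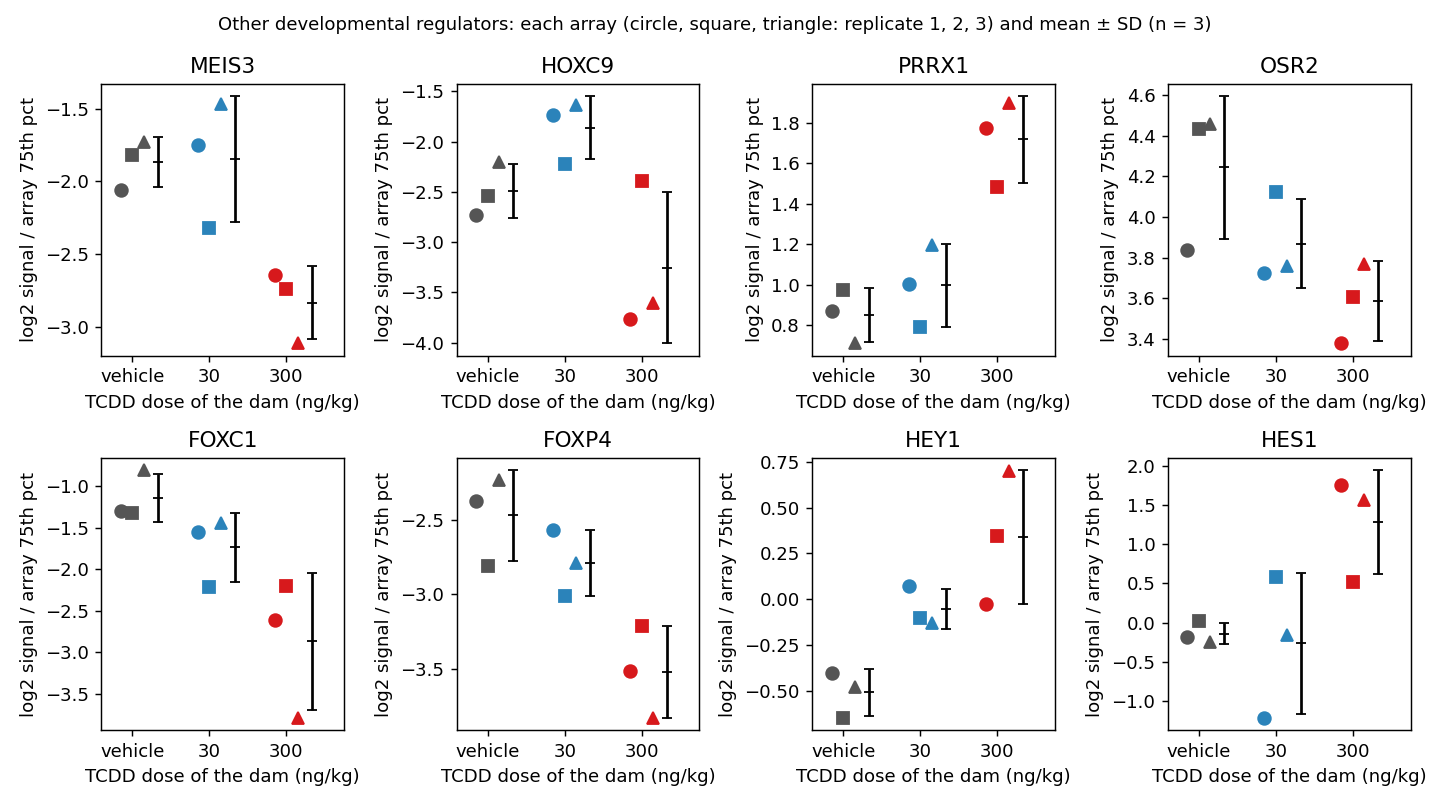
Scaled signal (log2 of signal over the array's 75th percentile, y axis) of 8 other developmental regulators in the vehicle, 30 ng/kg and 300 ng/kg groups (x axis), 1 point per animal and bars for the mean ± SD (n = 3). PRRX1, HEY1 and HES1 at 300 ng/kg lie above all vehicle points, MEIS3, OSR2, FOXC1 and FOXP4 lie below them, and HOXC9 overlaps.

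Named genes whose scaled signal followed a regulator most closely over the 9 arrays were sought among 1189 others, 1 probe each. All were selected by the authors for a difference between groups, which favours high correlations, and the points share dose groups and arrays. For ODD they were LOC55974 (Pearson r 0.99), UGDH (0.97), which makes UDP-glucuronate, and HSD11B2 (0.97), which inactivates cortisol. For IRX3 they were FLJ14681 (0.99), SNX5 (0.99), a sorting nexin, and CKLFSF7 (0.98). IRX1 was followed by CYB5 (0.96), EBPL (0.96) and ODD itself (0.95), and IRX4 by SARA2 (0.96), LOC441507 (0.96) and FLJ41287 (0.94).

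Of the genes that were lower at 300 ng/kg, SIX2 was followed by IER2 (r 0.96), an immediate early gene, FLNC (0.95), an actin crosslinker of muscle, and TACR2 (0.95), a tachykinin receptor. EYA1 was followed by PPP1R12C (0.99), a regulatory subunit of myosin phosphatase, KCNIP1 (0.98) and EXTL3 (0.97). BARHL1 was followed by ZFPM1 (0.997), a cofactor of GATA proteins, ZNF580 (0.99) and LOC718922 (0.99). BARHL1 also had the most genes at an r of at least 0.9, 166 of 1189 (14.0%), and IRX1 the fewest, 27. The most opposed patterns were NDE1 for IRX1, MAPRE3 for IRX3, IMPDH1 for IRX4, RCV1 for ODD, RAB9A for SIX2, LOC114926 for EYA1 and MMRP19 for BARHL1, with r between -0.99 and -0.96. Among the 7 regulators themselves, r was 0.74 to 0.95 between the probes that were higher at 300 ng/kg and 0.79 to 0.86 between those that were lower. Their signs follow from the choice of genes.

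Markers of prostate cell types were also read only from the authors' table of changed probes. Each was therefore kept there for a difference between groups, and markers that missed its cutoffs are absent. Of all tested probes, 11.5% lay above and 11.2% below the vehicle range in every 300 ng/kg animal, to be set beside the markers below. The part of these markers in the differences of the 7 regulators was not tested. All marker differences are relative to the rest of the array, whose median tested probe was 1.10 brighter (log2) at 300 ng/kg than in vehicle before scaling. Smooth muscle genes had 2 of 13 listed markers, LMOD1 and TPM2, and both were below the vehicle range at 300 ng/kg (-0.81 ± 0.28 and -0.73 ± 0.32, SE). Their summed scaled signal was 7.79 to 8.40 in vehicle, 7.92 to 8.81 at 30 ng/kg and 6.87 to 7.63 at 300 ng/kg. Sums here and below were taken before the log, so the brightest probe, here TPM2, weighs most. The fibroblast and matrix list had 4 of 12 genes: COL1A1, COL1A2 and COL5A2 were higher without overlap (1.54, 0.75 and 0.48) and COL6A2 lower (-1.61). With slide as a fixed block COL5A2 turned to -0.23. The summed signal of these 4 genes was 5.96 to 7.27 in vehicle, 6.14 to 7.23 at 30 ng/kg and 5.33 to 5.80 at 300 ng/kg. That sum follows COL6A2, by far the brightest of the 4 probes, and does not describe the collagens that were higher.

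The luminal list had 3 of 16 genes, with a summed scaled signal of 5.71 to 7.28 in vehicle, 7.17 to 7.35 at 30 ng/kg and 5.72 to 7.78 at 300 ng/kg. In that sum MSMB was brightest in vehicle and at 30 ng/kg, and TGM4 in 300 ng/kg replicates 1 and 3. KLK3 (a probe without saturated spots, -1.47 ± 0.59) was lower and TGM4, a prostate transglutaminase, 8.87 ± 1.44 higher at 300 ng/kg without overlap, while MSMB overlapped (-0.73 ± 0.36). TGM4 was at 6.81, 1.42 and 7.41 in the 300 ng/kg animals, so that replicate 2 was the lowest, as for ODD, IRX1 and IRX3. KRT13, 1 of 10 genes of stratified epithelium, was well above background on 1 vehicle array, on no array of 30 ng/kg and on all 3 of 300 ng/kg, the same arrays on which IRX4 was brightest. Of the dim markers, normexp put KRT13 at 1.11 and S100A2 at 0.32 for 300 ng/kg minus vehicle. Of 12 basal genes ITGB4 and S100A2 had a symbol, both with overlap between 300 ng/kg and vehicle (0.21 ± 0.24 and 1.55 ± 0.57). Their summed signal, almost all from ITGB4, was 2.18 to 2.80 in vehicle, 2.95 to 3.37 at 30 ng/kg and 2.58 to 2.67 at 300 ng/kg.

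Of the other cell types with any marker in the authors' table, each had 1 there. LPL of adipocytes, XBP1 of plasma cells and FCER1A of mast cells were above the vehicle range at 300 ng/kg (1.24 ± 0.29, 1.39 ± 0.28 and 2.15 ± 0.51), against 11.5% of tested probes. FCER1A was well above background on 1 vehicle and all 3 of the 300 ng/kg arrays. The FCER1A difference was 0.38 under normexp and 0.64 with slide as a fixed block. PECAM1 of endothelium differed by 0.00 ± 0.29 at 300 ng/kg and was 1.31 ± 0.29 higher at 30 ng/kg without overlap. Markers of urothelium, seminal vesicle, nerve, skeletal muscle, T and NK cells, myeloid cells and erythrocytes had no symbol and were not analysed here.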

How the data were processed

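RNA of 9 prostates, 3 per dose group, was put on 1-colour Agilent arrays, per the labels. Image extraction by the authors used version 9.5.1.1 of Agilent Feature Extraction, per the file headers (9.5 in the submitters' processing notes), and the deposited processed signal is a linear intensity, background-subtracted within each array. The deposited table of 1502 probes gives folds as a ratio of at least 1 with a direction, and group means on the log2 scale. Its folds equal differences of these means plus a constant shift per group, by a method not given in the sources used here. The shifts were 0.510 at 30 ng/kg and -1.098 at 300 ng/kg, nearly those of the 75th percentile used here (0.512 and -1.100). The 9 flag columns of that table were left aside.

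The 2 spots of a probe were averaged without outlier-flagged spots, divided by the array's 75th percentile, floored at -6.10 in log2 (5 units on the dimmest array) and logged. A probe was tested where some group had it well above background on each of its arrays (15160 probes, leaving 5057 out). Limma version 3.58.1, with statmod 1.5.0, data.table of version 1.17.8 and R 4.3.3, fitted all arrays with group as the only term (6 residual and 2.99 prior degrees of freedom) and Benjamini-Hochberg adjustment. Precision is limited by the few arrays. The fit was tested on simulated data.

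Gene names come from the authors' table, and 6 of the 7 symbols stand in the macaque reference table (ODD does not), whose build differs from the arrays', so no coordinates are given. The members, lists and naming rule were chosen with earlier results of these data known. Named were the members, the 3 likest genes and the most opposed gene of each, and the listed genes with a symbol, on the brightest probe free of saturated spots. Alternatives were quantile and median scaling, normexp (planned on the mean signal, run on the deposited median intensity), a floor of 1, filters, slide and replicate blocks, array weights, the compared groups alone, 1 slide alone and each array left out. Taking 1 spot per probe was added after the data were seen.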

Additional observations from a re-analysis of the deposited data

How the results depend on the processing

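Of 470 recomputed log2 differences of the 7 probes, 452 kept their direction and moved by less than the probe's residual SD, 10 moved further and 8 turned sign, none of the latter for 300 ng/kg minus vehicle. Many of the 470 could not move by construction, so the 452 do not measure robustness. Filters, the compared groups alone, the replicate block and a left-out array outside the comparison leave a difference as it was. The floor of 1 changed only IRX4, and 1 slide alone repeats the fixed slide block. Under normexp, 30 ng/kg minus vehicle turned to 0.61 for IRX1, 0.57 for IRX4 and -0.17 for SIX2, and 300 minus 30 ng/kg to -0.24 for IRX1, whose dim signals lie under the offset of 50. Array weights turned IRX3 to -0.22 for 30 ng/kg minus vehicle. SIX2 there was -0.0019 with median scaling and -0.16 to 0.34 with 1 array left out. Median scaling put the median of all probes at 0.15 between the doses, from -0.03. For IRX4 at 30 ng/kg a floor of 1 unit gave -2.02 and quantile scaling -1.90, values below the limit of measurement. The cause of the other changes was not tested.

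Probes at an unadjusted limma p under 0.05 numbered 766 for 30 ng/kg minus vehicle, 2357 for 300 ng/kg minus vehicle and 3130 between the doses. In that order normexp gave 397, 1246 and 4459, array weights 3149, 4634 and 5950, slide as a fixed block 1552 for the first, and leaving out 1 array 410 to 1937, 997 to 2860 and 1592 to 4629. The highest counts came without replicate 2 of 30 ng/kg for the first and the last. Adjusted calls, 0 in the reported fit, were 6 with slide as a fixed block for 30 ng/kg minus vehicle, and 0 to 1 with 1 array left out. For 300 ng/kg minus vehicle they were 198 with array weights and 0 to 271 with 1 array left out. Between the doses they were 1 with quantile scaling, 3 with median scaling, 2 with slide as a fixed block, 2951 with array weights and 0 to 774 with 1 array left out. With the replicate block there was 1 adjusted call between the doses, and 923, 2461 and 3262 unadjusted ones. Correlations of deviations from group means were -0.26 to 0.54 between animals of the same number and -0.36 to 0.29 between those of different numbers. Whether the numbers pair animals cannot be told from these values. A fit of 300 ng/kg minus vehicle within 1 slide could not be run, since no slide holds both groups.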
